A study of Mus musculus with 8 samples.

Results

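The genes described here are 41 factors of the complement and coagulation cascades, taken from a table of 55487 genes by their symbols: 20 complement components and 21 coagulation factors. Values are counts of RNA fragments per gene in 8 mouse libraries, 4 from Bmal1+/+ hosts and 4 labelled Bmal1-/-. BMAL1 is a core transcription factor of the circadian clock, and the second label denotes hosts in which it was deleted throughout the body by a conventional knockout. All 8 hosts carried subcutaneous tumors of MC38, a mouse colorectal cancer cell line that kept its own Bmal1 and was labelled with GFP, and RNA was taken from the GFP-negative cells left after sorting, called the stromal vascular fraction. No drug or other agent separated the groups, and the age, sex and hour of collection of these animals are not given in the sources used here. The text of the series speaks of an array, whereas the values are sequencing counts. Nothing in the labels ties a library to a named animal, so p-values measure the spread between these libraries.

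Complement and coagulation are cascades of plasma proteases and their cofactors, and hepatocytes make most of the circulating proteins of both. Complement starts by the classical, lectin or alternative pathway, converges on the cleavage of C3 and C5, and ends when C5b, C6, C7, C8 and C9 assemble a pore in the target membrane. Coagulation starts by contact activation or by tissue factor with factor VII, converges on factor X and thrombin, and ends when thrombin turns fibrinogen into a fibrin clot. Many of these genes belong to the acute-phase response, in which cytokines such as IL-6 alter the output of the liver.

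Several facts of the whole series bear on every value below. Library totals ranged from 14054825 to 18449143, and the detection floor, set at 3 counts, lay between 0.163 and 0.213 CPM (counts scaled by the total of the library), a limit that takes only counting error into account. Arntl, the gene of BMAL1, had between 0.960 and 2.71 normalized CPM (scaled by edgeR's TMM factors) in Bmal1+/+ libraries and between 30.1 and 35 in the others. The targeted transcript thus goes against the label, and the second group is called the libraries labelled Bmal1-/- for that reason. The counts are per gene and do not separate the exons that the knockout deletes, and the clock outputs Dbp and Nr1d1 were lower in the libraries labelled Bmal1-/- (log2 fold change -4.32 and -3.97). Xist had between 844 and 1095 normalized CPM in Bmal1+/+ libraries and at most 0.749 in the others, and the Y-linked genes Ddx3y, Eif2s3y, Kdm5d and Uty had no count in the former, so sex transcripts and label cannot be told apart. Hepatocyte markers were abundant in RNA labelled as tumor stroma. Albumin (Alb) had between 64318 and 71872 normalized CPM in Bmal1+/+ libraries and between 12744 and 18829.8 in the libraries labelled Bmal1-/-, and it was the 1 of 16 hepatocyte markers called lower, with 3 higher (Apoa1, Serpina1a and Apoh), 12 not called and a list median log2 fold change of 0.06. Of 10 fibroblast and stellate cell markers 5 were lower and none higher. Their summed level was between 222 and 323 normalized CPM in Bmal1+/+ libraries and between 149 and 183 in the others. Of 8 epithelial and tumor cell markers, 5 were tested, of which 1 was higher and 2 lower. These markers summed to between 193 and 238 normalized CPM in Bmal1+/+ libraries and between 235 and 375 in the others. Only 1 of them, the intestinal epithelial factor Cdx2, was at 0 in all 8 libraries.

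All 41 members passed edgeR's expression filter, and the groups were compared with its quasi-likelihood test and Benjamini-Hochberg adjustment over the 14353 genes tested. Of the members, 14 had an adjusted p below 0.05 and a higher level in the libraries labelled Bmal1-/-, 3 were lower and 24 were not called. Over all genes tested 31.1% were called, 14.9% higher and 16.2% lower, against 41.5% of members called, 34.1% higher and 7.32% lower. By the study's own criterion, an absolute log2 fold change above 1 with an unadjusted p below 0.05, 8 members were higher (5.41% of all genes) and 1 was lower (8.71% of all genes). The libraries of the 2 groups did not overlap for 18 members, the 17 called and F2, and for 33.4% of all genes. The median log2 fold change of the members was 0.18 and that of all genes tested was 0.02. In bulk RNA, fewer cells of a type and less RNA per cell cannot be told apart.

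**Figure D1:**
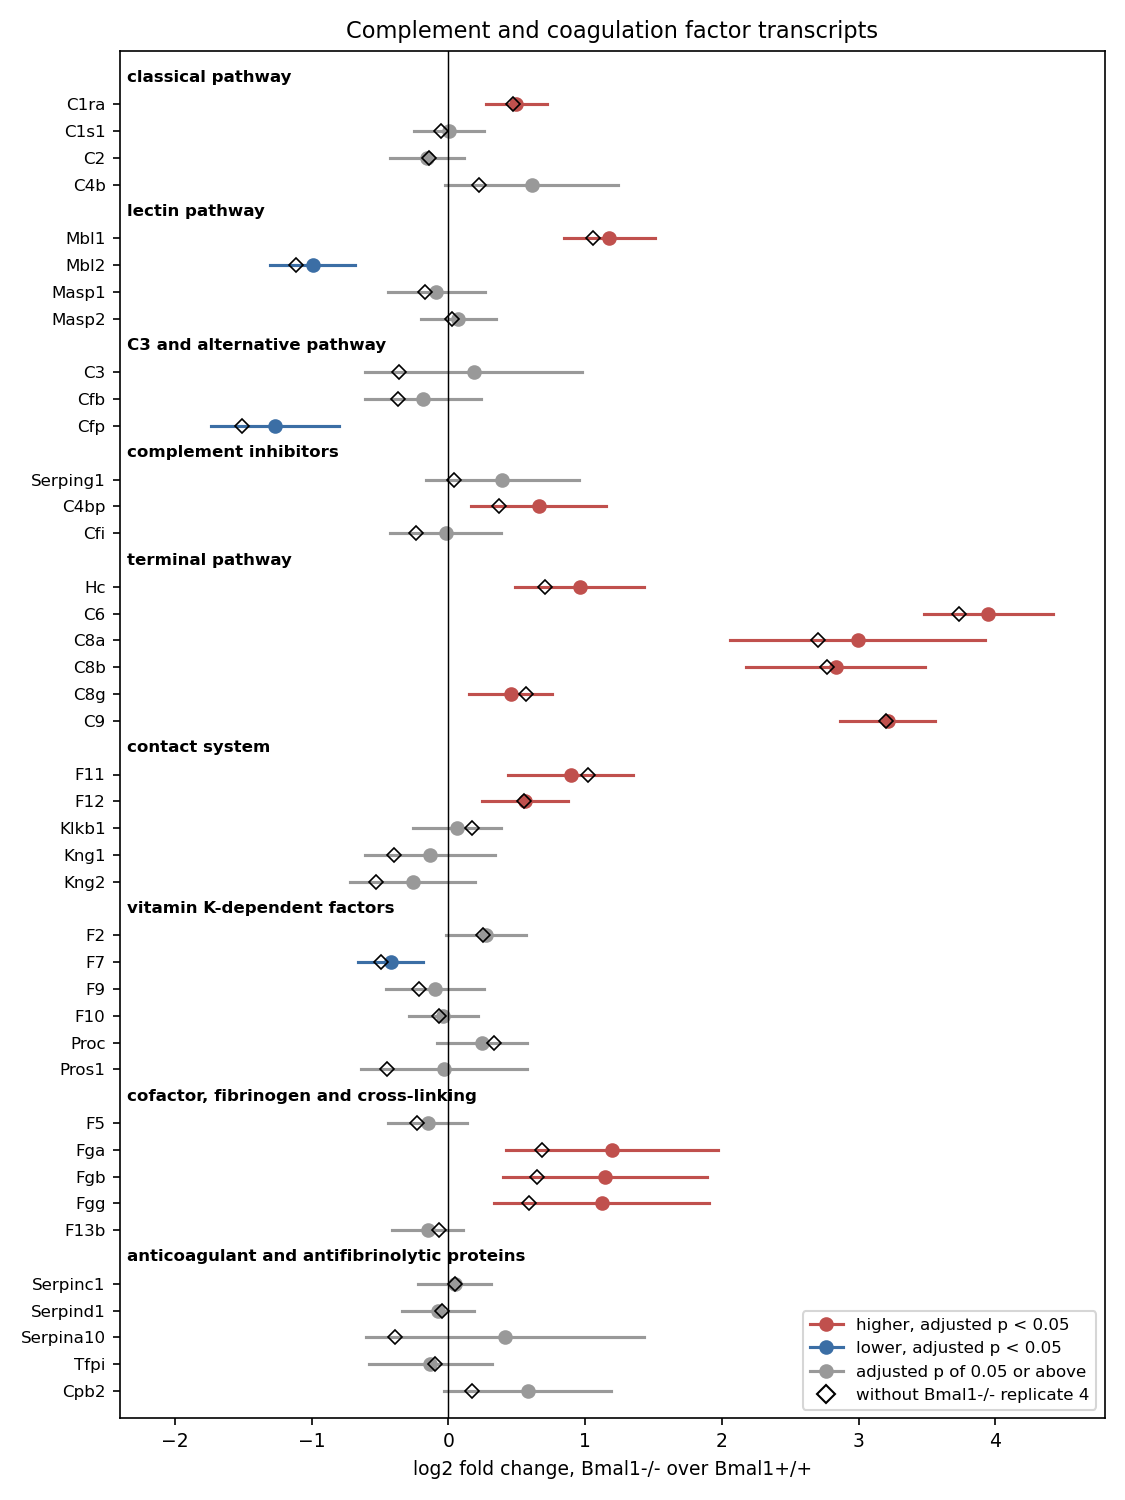
Log2 fold change of each of the 41 members between the libraries labelled Bmal1-/- and the Bmal1+/+ libraries (circles, with 95% confidence intervals), grouped by role, with the value without Bmal1-/- replicate 4 as open diamonds. The terminal pathway holds the 4 largest values, from 2.83 for C8b to 3.95 for C6. The diamonds of C3, Serpina10 and Pros1 lie far to the left of their circles, as do those of the called Fga, Fgb and Fgg.

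The terminal pathway changed most. All 6 members measured, which encode C5 (Hc), C6, the alpha, beta and gamma chains of C8 (C8a, C8b, C8g) and C9, were higher in the libraries labelled Bmal1-/-, and none overlapped between groups. C6 (ENSMUSG00000022181, chr15:4727175-4814967, GRCm38), whose product joins C5b to start the pore, had 21.2, 22.7, 23.9 and 22.5 normalized CPM in Bmal1+/+ libraries and 256, 294, 349 and 496 in the libraries labelled Bmal1-/-. Its Bmal1+/+ values were close together, and every library of the other group was far above all of them. The fold change was 15.5 (log2 fold change 3.95, SE 0.21, adjusted p = 2.4e-06).

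C9 (ENSMUSG00000022149, chr15:6445327-6498751), the subunit that polymerizes into the wall of the pore, had 116, 142, 169 and 136 normalized CPM in Bmal1+/+ libraries. It had 1231, 1199.8, 1447 and 1346 in the libraries labelled Bmal1-/-, so that the groups stood well apart with little spread within either. The fold change was 9.27 (log2 fold change 3.21, SE 0.16, adjusted p = 1.3e-06).

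The chains of C8 did not move by the same amount. C8a (ENSMUSG00000035031, chr4:104815679-104876398) had 47.1, 92.6, 179.6 and 70.8 normalized CPM in Bmal1+/+ libraries and 682, 633, 587 and 1206 in the libraries labelled Bmal1-/-, a fold change of 7.97 (log2 fold change 2.99, SE 0.42, adjusted p = 0.00069). C8b (ENSMUSG00000029656, chr4:104766317-104804548) had 37.4, 74.5, 95.9 and 42.3 and then 418, 449.9, 405 and 507, a fold change of 7.12 (log2 fold change 2.83, SE 0.29, adjusted p = 0.00012). In both genes Bmal1+/+ replicate 3 was the highest of its group and replicate 1 the lowest. C8g, which encodes a lipocalin chain unrelated in sequence to the other two, had 291, 271, 284 and 285 normalized CPM in Bmal1+/+ libraries and 418, 418, 419.7 and 294 in the libraries labelled Bmal1-/-. Its replicate 4 lay just above the highest Bmal1+/+ library, and its fold change was 1.37 (log2 fold change 0.45, SE 0.14, adjusted p = 0.030), a call that was lost in 8 of 17 other settings.

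Hc, whose product C5 is cleaved to start the terminal pathway, had 757, 668, 818 and 704 normalized CPM in Bmal1+/+ libraries and 1250.1, 1242, 1104 and 2136 in the libraries labelled Bmal1-/-. Replicate 4 stood above the other 3, which lay above every Bmal1+/+ library. The fold change was 1.95 (log2 fold change 0.96, SE 0.21, adjusted p = 0.0076). C6, C8a, C8b and C9 were thus the 4 members more than 4-fold higher with an adjusted p below 0.05, a level that 1.57% of all genes passed. C7, which is no member, had at most 0.783 normalized CPM and was not tested. Terminal components are known to be more abundant in male than in female mice, and in these libraries the transcripts of sex moved with the label in all 8. Sex and label therefore cannot be told apart for these genes, and the part of either was not tested.

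**Figure D2:**
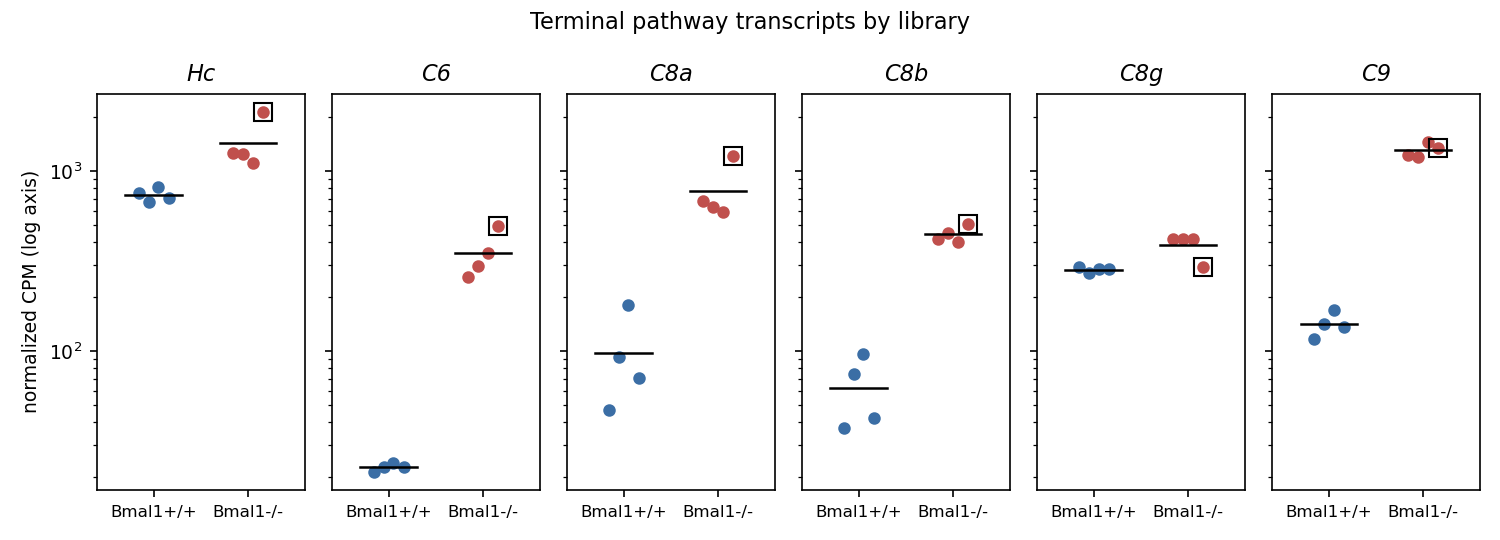
Normalized CPM (log axis) of the 6 terminal pathway transcripts in each library, with group means as bars and Bmal1-/- replicate 4 boxed. C6 and C9 show the widest gap between the groups, and the gap of C8g nearly closes at replicate 4 (294 against 291).

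Per length, the gamma chain of C8 stood above the other chains in Bmal1+/+ libraries, and the 3 chains lay within their spread in the others. The C8g gene overlaps Fbxw5 on the opposite strand. Since strand use in counting is not given, fragments of Fbxw5 may have been counted as C8g, which was not tested. Mean FPKM in Bmal1+/+ libraries was 14.4 ± 8.73 for C8a, 18.6 ± 8.35 for C8b and 88.8 ± 4.25 for C8g (SD, n = 4). In the libraries labelled Bmal1-/- it was 116 ± 40.4, 134 ± 12 and 124 ± 22.0 in the same order (SD, n = 4). The count ratio of C8g to C8b within a library lay between 2.97 and 7.77 in Bmal1+/+ libraries and between 0.579 and 1.04 in the others, without overlap. The log2 ratio differed by -2.49 between the groups (exact two-sided permutation test, p = 0.0286, the smallest that 4 against 4 libraries allow, and 0.0571 after adjustment over 8 ratios). The ratio of C8a to C8b, genes 11130 bases apart on opposite strands of chromosome 4, lay between 1.24 and 1.87 and between 1.41 and 2.38, and its log2 difference of 0.17 was within the spread (exact permutation test, p = 0.514).

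The start of each of these genes is shown because C6, C8a, C8b and C9 changed most and together. RefSeq windows (GRCm38.p6), from 250 bases before to 50 bases after an annotated start, were found for 32 of the 41 members. They were searched on both strands for the E-box CACGTG, the letters bound by BMAL1 with its partner CLOCK, for the D-box TTATGTAA or TTATGCAA bound by DBP and its relatives, and for TTCNNNGAA, the form bound by STAT factors. CTGGGAA, a core of the IL-6 response element type of fibrinogen genes, was added after the values were seen. In the sequences shown here and below for the fibrinogen genes, no match overlapped another motif. Overlap in the other windows was not examined, so a site there may count for both the STAT motif and CTGGGAA. The 250 bases before the start lie at chr15:4726960-4727209 on the plus strand for C6, at chr4:104876399-104876648 on the minus strand for C8a, at chr4:104766067-104766316 on the plus strand for C8b and at chr15:6445096-6445345 on the plus strand for C9. For C6 and C9 the RefSeq start lies past the GENCODE start given above, so the last bases shown fall inside that gene model. Positions are relative to the RefSeq start. Capitals mark a STAT motif in C8a, from -228 to -220 relative to the start, and a D-box read on the opposite strand in C9, from -132 to -125.
C6: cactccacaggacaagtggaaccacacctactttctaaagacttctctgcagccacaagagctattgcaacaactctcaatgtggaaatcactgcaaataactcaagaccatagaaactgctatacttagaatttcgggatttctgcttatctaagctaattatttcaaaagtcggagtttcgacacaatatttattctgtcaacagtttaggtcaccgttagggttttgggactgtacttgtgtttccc
C8a: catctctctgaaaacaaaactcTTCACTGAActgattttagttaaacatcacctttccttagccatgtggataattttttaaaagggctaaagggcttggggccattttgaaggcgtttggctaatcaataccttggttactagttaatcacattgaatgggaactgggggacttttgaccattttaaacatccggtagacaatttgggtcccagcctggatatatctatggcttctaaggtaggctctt
C8b: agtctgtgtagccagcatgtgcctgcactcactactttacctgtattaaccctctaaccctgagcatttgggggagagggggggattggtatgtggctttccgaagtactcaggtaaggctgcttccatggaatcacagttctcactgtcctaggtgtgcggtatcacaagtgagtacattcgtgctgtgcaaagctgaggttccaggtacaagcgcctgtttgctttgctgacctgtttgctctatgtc
C9: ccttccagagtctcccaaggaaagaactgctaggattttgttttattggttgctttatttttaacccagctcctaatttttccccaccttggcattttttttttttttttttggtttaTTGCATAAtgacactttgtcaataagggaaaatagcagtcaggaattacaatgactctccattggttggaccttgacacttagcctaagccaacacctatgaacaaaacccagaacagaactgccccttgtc

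Across the members, the E-box was in the window of 1 of 32 (Tfpi), or 3.12%, against 8.09% of all genes with a window. The D-box was in 2 (C1ra and C9), or 6.25%, against 1.98% of all genes. The STAT motif was in 7, or 21.9%, against 9.55% of all genes, and CTGGGAA was in 8, or 25%, against 12.7%, with the match of C6 running across its start, past the bases shown. Of the 7 with a STAT motif, C1ra, C8a, Fga and Fgb were called higher and Masp2, F9 and Pros1 were not called. Of the 8 with CTGGGAA, C1ra, C6, Fgb and Fgg were called higher and Masp2, Kng2, F9 and Tfpi were not called. Over all members 14 were called higher, and each of them was among the 32 with a window. A link between motif and call was not tested. These are matches of letters in a fixed window and not measured binding.

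The lectin pathway split between its recognition proteins. Mannose-binding lectins A and C, encoded by Mbl1 and Mbl2, both bind sugars on microbes and activate the same proteases. Mbl1 (ENSMUSG00000037780, chr14:41151458-41159601) had 103, 82.8, 109 and 94.9 normalized CPM in Bmal1+/+ libraries and 180.1, 225, 201 and 274 in the libraries labelled Bmal1-/-, a fold change of 2.26 (log2 fold change 1.18, SE 0.15, adjusted p = 0.00040). Mbl2 (ENSMUSG00000024863, chr19:30232942-30239687) had 524, 492, 535 and 581 in Bmal1+/+ libraries and 241, 260.3, 234 and 335 in the others, and was 1.99-fold lower (log2 fold change -0.99, SE 0.14, adjusted p = 0.00076). Neither gene overlapped between the groups, and they moved in opposite directions. The count ratio of Mbl1 to Mbl2 went from between 0.163 and 0.204 to between 0.746 and 0.863, a log2 difference of 2.17 (exact permutation test, p = 0.0286, adjusted p = 0.0571). Per length Mbl2 stayed the more abundant, with 247 ± 37.9 FPKM against 98.1 ± 16.3 FPKM for Mbl1 in the libraries labelled Bmal1-/- (SD, n = 4). Their proteases Masp1 and Masp2 were not called, with log2 fold changes of -0.09 (95% confidence interval from -0.44 to 0.26) and 0.07 (from -0.20 to 0.35).

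Of the classical pathway, C1ra, a protease of the C1 complex, was higher. It had 178, 196, 202 and 183 normalized CPM in Bmal1+/+ libraries and 275, 259, 256 and 282 in the libraries labelled Bmal1-/-, with no overlap and a fold change of 1.41 (log2 fold change 0.50, SE 0.10, adjusted p = 0.0045). C1s1, the protease that C1r activates and a neighbor of C1ra on chromosome 6, lay between 442 and 480.1 and between 409 and 521, and its fold change was 1.00 (adjusted p = 0.97). The ratio of C1ra to C1s1 differed by 0.50 on the log2 scale without overlap between groups (exact permutation test, p = 0.0286, adjusted p = 0.0571). Mouse C1ra has a close copy, C1rb, to which reads may have been assigned, and the C1rb transcript was not called (log2 fold change 0.21, adjusted p = 0.21). C2 had a log2 fold change of -0.16 (adjusted p = 0.36), and part of it overlaps a gene model that joins it to Cfb.

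C4b, which encodes C4, had 1641, 1509, 1798 and 1273 normalized CPM in Bmal1+/+ libraries and 1964, 1865, 1611 and 4054 in the libraries labelled Bmal1-/-. Replicate 4 stood apart and the other 7 libraries overlapped, so its log2 fold change of 0.61 was not called (SE 0.28, adjusted p = 0.13). It has a near-identical copy, C4a, and how reads were divided between them is uncertain.

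C3, on which all 3 starting pathways converge, was the most abundant member per length in Bmal1+/+ libraries (1656 ± 123 FPKM, SD, n = 4). It had 10125, 9029, 9725 and 9135 normalized CPM in Bmal1+/+ libraries and 8186, 8032, 5948 and 21036 in the libraries labelled Bmal1-/-. Replicates 1 to 3 of the latter lay below every Bmal1+/+ library and replicate 4 above all of them. The log2 fold change was 0.18 (SE 0.36, adjusted p = 0.73), and without replicate 4 it was -0.36 (adjusted p = 0.089). Factor B (Cfb), which forms the alternative convertase with C3b, had log2 fold changes of -0.18 (adjusted p = 0.49) and, without replicate 4, -0.37 (adjusted p = 0.064).

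Properdin (Cfp, ENSMUSG00000001128, chrX:20925454-20931555), which stabilizes that convertase and is made by myeloid cells rather than hepatocytes, was the member that fell most. It had 57.8, 41.7, 60.3 and 45.7 normalized CPM in Bmal1+/+ libraries and 18.7, 17.1, 18.3 and 31.3 in the libraries labelled Bmal1-/-. The groups did not overlap, and it was 2.41-fold lower (log2 fold change -1.27, SE 0.21, adjusted p = 0.0018). Of 9 macrophage and Kupffer cell markers, 7 were lower and none higher, and their summed level was between 467 and 578 normalized CPM in Bmal1+/+ libraries and between 213 and 422 in the others. The part of these cells in the result was not tested.

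Among the inhibitors of complement, C4bp, which encodes the C4b-binding protein, was 1.58-fold higher (log2 fold change 0.66, SE 0.22, adjusted p = 0.046). It had 467, 392, 423 and 463 normalized CPM in Bmal1+/+ libraries and 550.0, 557, 581 and 1069 in the others, without overlap, and its call was lost in 8 of 17 other settings. Without replicate 4 its log2 fold change was 0.37 (adjusted p = 0.024). Serping1, the C1 inhibitor, and Cfi, the protease that degrades C3b and C4b, were not called, with log2 fold changes of 0.39 (adjusted p = 0.26) and -0.02 (adjusted p = 0.95).

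The fibrinogen genes were all higher in the libraries labelled Bmal1-/-, with calls that depended on the setting. Fga, Fgb and Fgg encode the alpha, beta and gamma chains of fibrinogen and lie side by side on chromosome 3, with 11026 bases between Fgg and Fga and 6513 between Fga and Fgb. Fga had 3329.6, 2905, 3982 and 2913 normalized CPM in Bmal1+/+ libraries and 4677, 5715, 5429 and 14307 in the libraries labelled Bmal1-/-. Fgb had 2942, 2767, 3499.8 and 2817 and then 4178, 4786, 5124 and 12463, and Fgg had 2708, 2469, 3231 and 2693 and then 3561, 4276, 4651 and 11656. In each gene all 4 libraries labelled Bmal1-/- lay above all Bmal1+/+ libraries, and replicate 4 was 2.60 to 2.73 times the median of the other 3.

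The fold changes were 2.29 for Fga (log2 fold change 1.2, SE 0.35, adjusted p = 0.026), 2.21 for Fgb (1.14, SE 0.33, adjusted p = 0.027) and 2.17 for Fgg (1.12, SE 0.35, adjusted p = 0.036). Without replicate 4 they were 1.61 (adjusted p = 0.0072), 1.57 (adjusted p = 0.0057) and 1.5 (adjusted p = 0.012). The call was lost in 4 of 17 other settings for Fga and Fgb and in 7 for Fgg, among them the replicate block and leaving out Bmal1+/+ replicate 1, 2 or 4, with an adjusted p of up to 0.0712, 0.0705 and 0.0892. The proportions of the chains differed little between libraries. The ratio of Fga to Fgb lay between 1.03 and 1.14 in Bmal1+/+ libraries and between 1.06 and 1.19 in the others, replicate 4 included, and the log2 ratio differed by 0.05 (exact permutation test, p = 0.314). The ratio of Fgg to Fgb lay between 0.892 and 0.956 and between 0.852 and 0.935, with a log2 difference of -0.04 (exact permutation test, p = 0.286).

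The 250 bases before the start of each fibrinogen gene are shown because the chains were highest in replicate 4, in which acute-phase transcripts were also high. A link between these values, or between them and the motifs, was not tested. The bases shown lie at chr3:83025903-83026152 on the plus strand for Fga, at chr3:83049864-83050113 on the minus strand for Fgb and at chr3:83007474-83007723 on the plus strand for Fgg. For Fga the RefSeq start lies past the GENCODE start (chr3:83026076), so the last bases shown fall inside that gene model. Capitals mark the STAT motif in Fga, from -234 to -226, the STAT motif in Fgb, from -162 to -154, and CTGGGAA in Fgb, from -91 to -85, and in Fgg, from -13 to -7.
Fga: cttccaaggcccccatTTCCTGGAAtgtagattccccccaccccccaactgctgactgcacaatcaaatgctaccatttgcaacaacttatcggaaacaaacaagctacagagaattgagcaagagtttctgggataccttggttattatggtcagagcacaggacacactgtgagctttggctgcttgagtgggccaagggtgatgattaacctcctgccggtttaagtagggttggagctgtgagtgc
Fgb: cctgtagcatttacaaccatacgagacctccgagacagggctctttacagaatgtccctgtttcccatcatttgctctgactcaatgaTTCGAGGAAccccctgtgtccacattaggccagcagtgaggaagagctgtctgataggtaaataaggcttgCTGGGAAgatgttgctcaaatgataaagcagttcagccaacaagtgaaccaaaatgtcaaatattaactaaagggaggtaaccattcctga
Fgg: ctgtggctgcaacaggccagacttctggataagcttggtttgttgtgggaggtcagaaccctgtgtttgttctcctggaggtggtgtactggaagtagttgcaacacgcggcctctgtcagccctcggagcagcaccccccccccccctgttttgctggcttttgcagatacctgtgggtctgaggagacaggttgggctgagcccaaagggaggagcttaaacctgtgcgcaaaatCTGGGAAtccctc

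**Figure D3:**
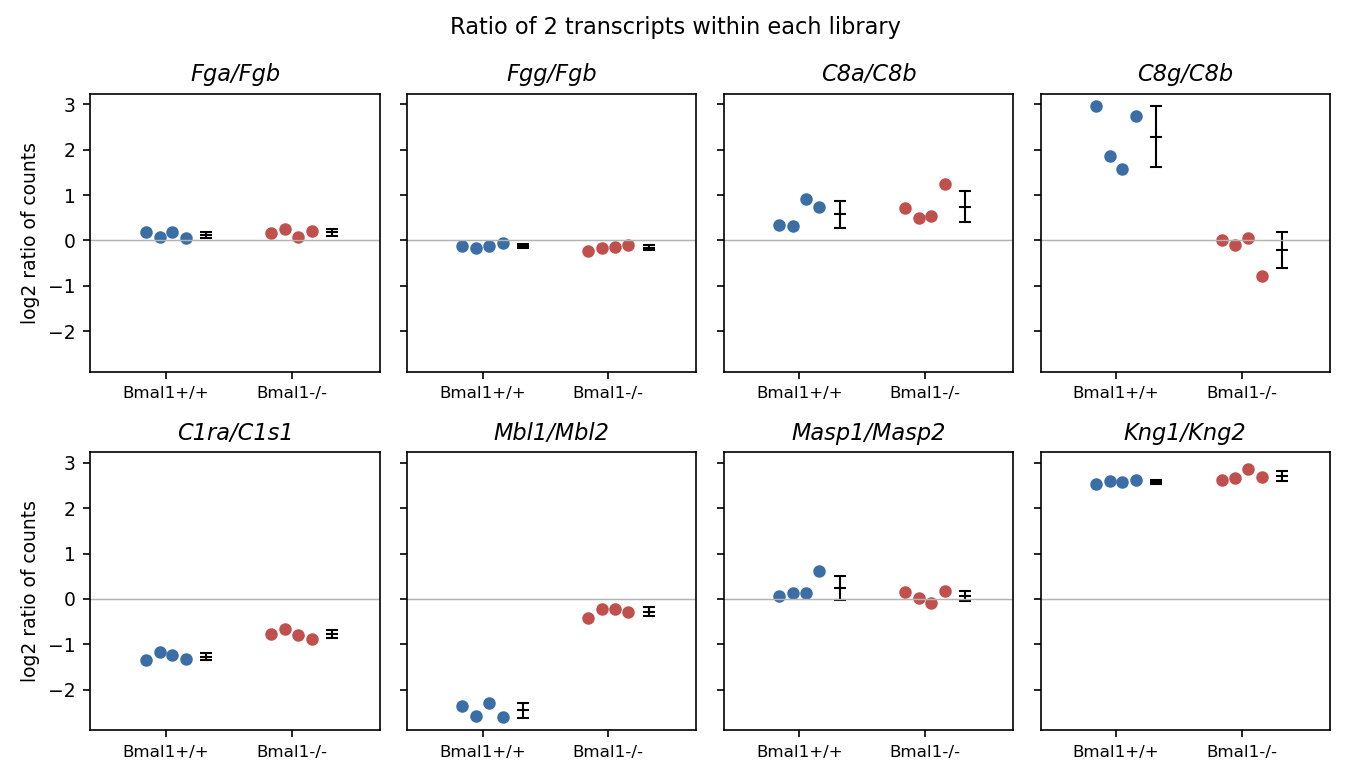
Log2 ratio of the counts of 2 transcripts within each library, with the mean and SD of each group beside the points. C8g over C8b and Mbl1 over Mbl2 differ by -2.49 and 2.17 between the groups, whereas the fibrinogen ratios lie on top of each other.

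Of the contact system, which starts coagulation on charged surfaces, factor XI (F11) and factor XII (F12) were higher. F11 had 35.2, 55.6, 47.9 and 56.7 normalized CPM in Bmal1+/+ libraries and 115, 105, 77.3 and 65.8 in the libraries labelled Bmal1-/-, a fold change of 1.86 (log2 fold change 0.89, SE 0.21, adjusted p = 0.0094). F12 had 478, 544, 552 and 389 and then 660.0, 715, 781 and 743, a fold change of 1.48 (log2 fold change 0.56, SE 0.14, adjusted p = 0.014). Neither overlapped between groups, and replicate 4 had the lowest F11 of the libraries labelled Bmal1-/-. Klkb1, the gene of plasma prekallikrein and a neighbor of F11 on chromosome 8, was not called (log2 fold change 0.06, adjusted p = 0.76).

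The kininogen genes Kng1 and Kng2, close copies on chromosome 16 between which reads may be divided, encode the precursor of bradykinin. Kng1 had 1816, 1832, 2012 and 2002 normalized CPM in Bmal1+/+ libraries and 1462, 1382, 1504 and 2624 in the libraries labelled Bmal1-/-. Replicates 1 to 3 lay below and replicate 4 above every Bmal1+/+ library, as they also did for Kng2. Their log2 fold changes were -0.14 (adjusted p = 0.66) and -0.26 (adjusted p = 0.36), and without replicate 4 they were -0.40 (adjusted p = 0.018) and -0.53 (adjusted p = 0.0036). The ratio of Kng1 to Kng2 differed by 0.13 on the log2 scale without overlap (exact permutation test, p = 0.0286, adjusted p = 0.0571). Of the 8 ratios tested, 4 had an unadjusted p below 0.05 and 0 an adjusted p below 0.05 by the exact permutation test. These 4 were at the smallest p that the test allows. With the other ratios above it, their adjusted p could not go below 0.0571, however far apart the groups lay.

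Of the 6 vitamin K-dependent factors, F7 was lower and 5 were not called. Factor VII, which binds tissue factor to start clotting, had 156, 168, 168 and 159 normalized CPM in Bmal1+/+ libraries and 115, 107, 124 and 139 in the libraries labelled Bmal1-/-, without overlap. It was 1.34-fold lower (log2 fold change -0.42, SE 0.11, adjusted p = 0.014). Factor X (F10), its substrate and its neighbor 1498 bases away on chromosome 8, had a log2 fold change of -0.04 (95% confidence interval from -0.29 to 0.21). Prothrombin (F2) had 1981, 2072, 2027 and 1765 normalized CPM in Bmal1+/+ libraries and 2279.5, 2155, 2579.6 and 2489 in the others. Its groups did not overlap, but its log2 fold change of 0.28 was not called (SE 0.13, adjusted p = 0.14), except by DESeq2 (adjusted p = 0.0376).

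Factor IX (F9) and protein C (Proc) had log2 fold changes of -0.10 (adjusted p = 0.68) and 0.24 (adjusted p = 0.24). Protein S (Pros1), a cofactor of protein C, had 74.6, 73.0, 84.4 and 71.9 normalized CPM and then 59.0, 54.8, 52.8 and 131. Its log2 fold change was -0.03 (adjusted p = 0.95), and without replicate 4, the only library of that group above the Bmal1+/+ range, it was -0.45 (adjusted p = 0.0093). Factor V (F5), a cofactor of factor X, and the B chain of factor XIII (F13b), which carries the enzyme that cross-links fibrin, both had a log2 fold change of -0.15 and were not called (adjusted p = 0.41 and 0.35).

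None of the 5 anticoagulant and antifibrinolytic proteins was called by edgeR, DESeq2 or limma-voom, and none had an unadjusted p below 0.05 in the edgeR test. Antithrombin (Serpinc1) lay between 1333 and 1514 normalized CPM in Bmal1+/+ libraries and between 1379 and 1553 in the others, with a log2 fold change of 0.05 (95% confidence interval from -0.22 to 0.31). Heparin cofactor II (Serpind1) had one of -0.08 (from -0.34 to 0.18). Wider intervals were found for the protein Z-dependent inhibitor (Serpina10, 0.41, from -0.60 to 1.43) and for carboxypeptidase B2 (Cpb2, which slows fibrinolysis, 0.58, from -0.03 to 1.19), and in both replicate 4 was the highest library. Tissue factor pathway inhibitor (Tfpi), which endothelial cells make, had at most 6.38 normalized CPM and a log2 fold change of -0.13 (from -0.58 to 0.32). Endothelial markers were lower for 6 of 8 genes, with a summed level between 365 and 416 normalized CPM in Bmal1+/+ libraries and between 256 and 335 in the others, and their part in the value of Tfpi was not tested.

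Per length, the order of the members changed mainly through the terminal pathway. In Bmal1+/+ libraries the highest mean FPKM were those of C3 (1656), Fgg (1152), Fgb (781), Fga (773) and Mbl2 (484), and the lowest was that of Tfpi (0.462). In the libraries labelled Bmal1-/- Fgg (2527), C3 (1901), Fga (1787) and Fgb (1740.3) led, neighbors whose spread over libraries exceeded the gaps between them, and Tfpi (0.428) remained last. C9 went from rank 31 of 41 (39.8 ± 6.34 FPKM) to rank 8 (376 ± 27.1 FPKM), C8b from 36 to 18, C8a from 39 to 20 and C6 from 40 (5.26 ± 0.283 FPKM) to 28 (82.5 ± 22.9 FPKM; SD, n = 4). Mbl2 went from rank 5 to 12 and F7 from 22 to 32.

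Replicate 4 of the libraries labelled Bmal1-/- differed from the other 3 in many members. It was the highest of its group for 29 of 41 and lay above 1.5 times the median of the other 3 for 17, or 41.5%, against 10.9% of all genes. The ratio was largest for Serpina10 (3.69), Fgg (2.73), Fga (2.64), C3 (2.62) and Fgb (2.60), followed by Pros1 (2.39), Cpb2 (2.32), C4b (2.17) and Serping1 (2.13). It lay below 0.8 for 5 members, F11 (0.626), C8g (0.702), Klkb1 (0.743), F13b (0.772) and Proc (0.784). It was near 1 for C9 (1.09), C1ra (1.09), F12 (1.04) and Serpinc1 (0.990). Members took between 3.29% and 3.89% of all counts in Bmal1+/+ libraries, between 4.14% and 4.34% in the other 3 labelled Bmal1-/- and 8.63% in replicate 4.

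**Figure D4:**
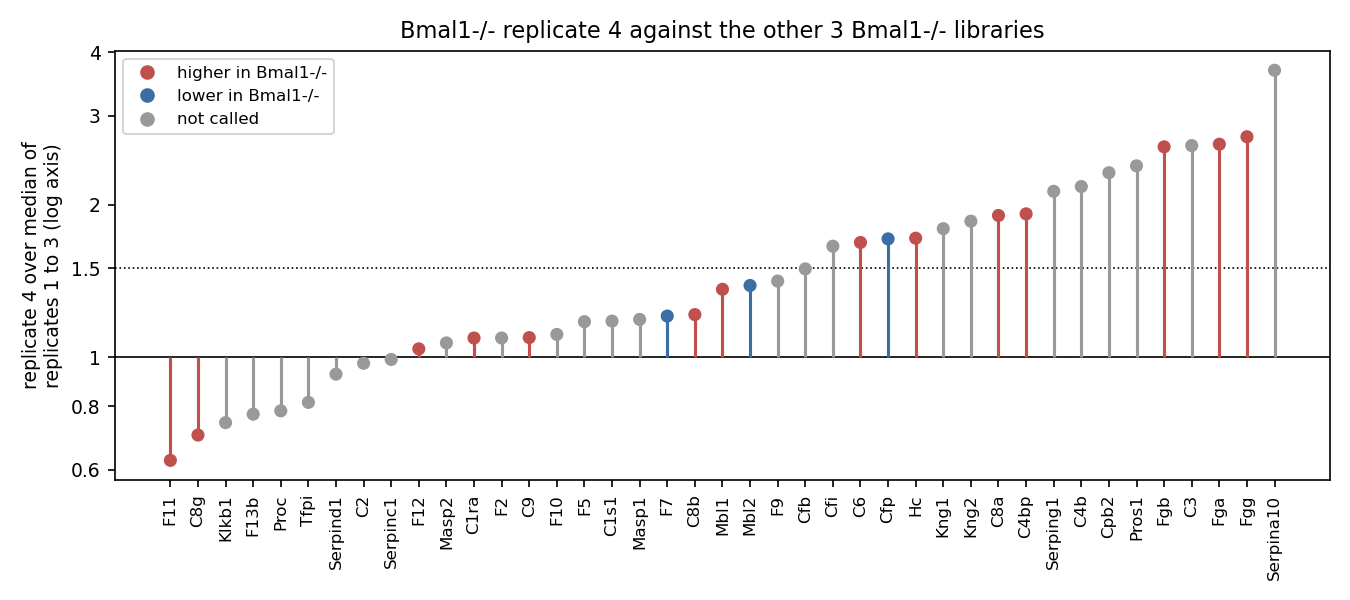
Level of each member in Bmal1-/- replicate 4 divided by the median of the other 3 libraries labelled Bmal1-/- (log axis), in rising order and colored by call. Serpina10 stands highest at 3.69 and F11 lowest at 0.626, and 17 members lie above the dotted line at 1.5.

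The same library held high acute-phase transcripts. A list of 14 acute-phase genes, such as Saa1 and Hp, summed to 63775 normalized CPM in replicate 4, between 7712 and 9551 in the other 3 and between 6815 and 8868 in Bmal1+/+ libraries, and all 14 were highest there among the libraries labelled Bmal1-/-. With all libraries 2 of the 14 were called higher and 0 lower, with a median log2 fold change of 1.59. Without replicate 4, 2 were higher and 6 lower, with a median of -0.43. Neutrophil markers, 6 genes, summed to 44.2 normalized CPM in replicate 4 against 2.91 to 3.93 in the other 3 and 7.22 to 9.74 in Bmal1+/+ libraries. All 9 macrophage and Kupffer cell markers were above 1.5 times the median of the other 3 there, and they summed to 422 normalized CPM against 213 to 253. The summed hepatocyte markers lay within the range of the other 3 (77357 against 74922 to 80493), but single markers moved in opposite directions, from 3.34 times the median of the other 3 for Trf to 0.737 for Alb and 0.264 for Fabp1. The part of these signals in the members' values was not tested.

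Without replicate 4, 14 members were higher (15.0% of all genes) and 6 lower (16.9% of all genes), and the groups did not overlap for 26 members (41.2% of all genes). Each of the 17 members called with all libraries was called again, and Kng1, Kng2 and Pros1 joined those that were lower. The median log2 fold change of the members was then 0.04, against 0.02 for all genes. The terminal pathway stayed without overlap, with log2 fold changes of 3.73 for C6, 3.20 for C9, 2.77 for C8b, 2.70 for C8a, 0.71 for Hc and 0.57 for C8g.

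Other genes of the cascades were read from 2 further lists. Of 30 other complement genes 25 were tested, of which 5 were higher and 11 lower (20% and 44%, against 14.9% and 16.2% of all genes, median log2 fold change -0.56). Of 30 other coagulation and fibrinolysis genes 22 were tested, of which 3 were higher and 6 lower (13.6% and 27.3%, median -0.12). Over both lists 17 were lower, and 10 without Bmal1-/- replicate 2. The largest rise was in C4a, with 32.6, 31.2, 32.8 and 20.5 normalized CPM in Bmal1+/+ libraries and 209.8, 160.4, 63.2 and 189 in the others (log2 fold change 2.41, SE 0.34, adjusted p = 0.00068). C4a is the copy of C4b known as the sex-limited protein because it is expressed in males of some strains. Its groups did not overlap, but its replicate 3 lay far below the other libraries labelled Bmal1-/-. Sex transcripts and label cannot be told apart here, and how reads were divided between C4a and C4b is uncertain.

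Vtn and Clu, whose products vitronectin and clusterin keep the terminal complex from inserting into host membranes, were higher by 0.77 (SE 0.20, adjusted p = 0.015) and 0.73 (SE 0.20, adjusted p = 0.019) on the log2 scale, beside the terminal components. The thrombin receptor F2r (log2 fold change 1.76, SE 0.15, adjusted p = 3.5e-05) and plasminogen (Plg, 0.65, SE 0.14, adjusted p = 0.0076) were also higher. The lowest were Gas6, a vitamin K-dependent ligand of TAM receptors (-2.85, SE 0.36, adjusted p = 0.00037), Itgax, a chain of complement receptor 4 on myeloid cells (-2.24, SE 0.37, adjusted p = 0.0018), and thrombomodulin (Thbd, -1.79, SE 0.36, adjusted p = 0.0050). Adamts13, the protease of von Willebrand factor, and C3ar1, the receptor of C3a, followed with -1.38 (adjusted p = 0.00072) and -1.33 (adjusted p = 0.0024). Of these genes, Itgax lay near the detection floor of 3 counts. It had at most 27 counts in Bmal1+/+ libraries and between 2 and 5 in the libraries labelled Bmal1-/-, so the size of its fall is uncertain. In the same libraries 7 of 9 macrophage and Kupffer cell markers, 6 of 8 endothelial markers and 5 of 10 fibroblast and stellate cell markers were lower. The part of these cells in the values was not tested.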

How the data were processed

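The authors sequenced RNA from the GFP-negative cells that remained after tumor cells were sorted out, aligned the read pairs to GRCm38 by HISAT2 and obtained fragments per gene from StringTie, according to the study's methods. The submitters' processing notes name CASAVA 1.8 and TopHat2 2.0.6 instead. The authors deposited these counts without normalization. They also deposited FPKM values, which for 100% of 12597 genes with at least 10 counts in every library equal the count over the library total and 1 length per gene, within 1%, and which were used for levels between genes. Strand use in counting is not given in the sources used here. Among the libraries labelled Bmal1-/-, the sample titled with another number was taken as replicate 4 from its description. It is the library that stood apart from the rest of its group in many members.

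Log2 fold changes, normalized CPM and tests came from the quasi-likelihood functions of edgeR 4.0.16 under R 4.3.3, after filterByExpr and TMM and with a prior count of 0.125, with Benjamini-Hochberg adjustment over 14353 genes and a threshold of 0.05. Standard errors are the absolute log2 fold change over the square root of F. Alternatives used DESeq2 1.42.0 and limma 3.58.1, other scalings, filters and a prior count of 2, the replicate number as a block, and leaving out each library. Ratios were tested in SciPy 1.17.1, and figures were drawn with matplotlib 3.10.9. Scripts were tested on simulated data. Coordinates are from GENCODE annotation of GRCm38 (99.53% of identifiers matched), promoters from RefSeq. Pairs of libraries in a group differed by at least 20.0 in chi-square per degree of freedom. The 41 members and all lists were chosen with earlier results of these data known. All members were named, with the 5 lowest and 5 highest called genes of the other lists. Genes named outside this rule (C7, C1rb, Saa1, Hp, Apoa1, Serpina1a, Apoh, Trf, Fabp1) were chosen after their values were seen.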

Additional observations from a re-analysis of the deposited data

Results flagged for a closer look

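Within each group of 4 libraries, the gap between the most extreme library and its nearest neighbor, divided by the range of the group, was set against Dixon's 95% critical value. Of 82 groups (41 members in each of 2 groups), 18 passed, where chance gives about 1 in 20, and genes of the same library are not independent. In 17 of them the library was Bmal1-/- replicate 4. It was the highest, in normalized CPM, for C3 (21036), Fga (14307), Fgb (12463), Fgg (11656), C4b (4054), Kng1 (2624), Hc (2136), Serping1 (1454), C8a (1206), C4bp (1069), Cfi (899), Cpb2 (738), Serpina10 (551), Kng2 (405), Pros1 (131) and Cfp (31.3). It was the lowest for C8g (294). The other was Klkb1 in Bmal1+/+ replicate 4 (375).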

How the results depend on the processing

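Under 17 alternatives, C1ra, Mbl1, Hc, C6, C8a, C8b, C9, F11 and F12 stayed higher and Mbl2, Cfp and F7 stayed lower with an adjusted p below 0.05. C4bp and C8g each lost their call in 8, Fgg in 7, and Fga and Fgb in 4. The count of members higher was 9 with the replicate block and between 12 and 15 in the other settings with all libraries. Without 1 library it ranged from 9 (without Bmal1+/+ replicate 1, 2 or 4) to 14, and the count lower from 3 to 6 (without Bmal1-/- replicate 4). Other cascade genes lower ranged from 10 (without Bmal1-/- replicate 2) to 17. The cause was not tested.

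Same-numbered libraries did not deviate together (r of -0.06, 0.06, 0.04 and 0.04), so the numbers were not read as pairs. With the replicate block 9 members were higher and 3 lower and C3 had a log2 fold change of -0.0083, and no ratio of 4 pairs could reach 0.05 by the exact test. Signs turned only for members that were not called. C1s1 had -0.0048 with DESeq2, -0.0028 with upper-quartile factors and -0.013 with at least 10 counts in every library, and Cfi had 0.0026 with library size only. Without 1 library C1s1 ranged from -0.056 to 0.063, C3 from -0.36 to 0.37, Cfi from -0.23 to 0.055, F10 from -0.10 to 7.8e-05, Klkb1 from -0.025 to 0.17, Masp1 from -0.17 to 0.020, Pros1 from -0.45 to 0.095 and Serpina10 from -0.39 to 0.65. No scaling moved the median of all genes by over 0.1. Ratios of 3 against 4 libraries were not tested, since an exact permutation test cannot go below p = 0.0571 there.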
